A study of Mus musculus and Rattus norvegicus with 26 samples.

Results

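The huntingtin gene (Htt) and 5 ataxin genes (Atxn1, Atxn2, Atxn3, Atxn7 and Atxn10) were followed through 6 lists of intronic contigs. Members were taken from the lists by gene symbol, and the symbols were picked with earlier results of these data known. Htt and Atxn10 in particular were already known to have introns with many reads in rat dendrites, so their high values there are a description and nothing is read from them. Of the 6 genes, 5 were listed and Atxn1 was in none of the lists. They held 100 of the 112345 contigs and were 5 of the 13695 symbols in the lists. The contigs fell into 81 introns counted once per list, 10 in mouse dendrites, 8 in mouse somas, 34 in BAT cells, 12 in cardiomyocytes, 10 in rat dendrites and 7 in rat somas.

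The study asked how often introns stay in transcripts that have reached the cytoplasm, above all in dendrites, which had been cut away from their nuclei. The mouse neurons were cultured from the hippocampus of C57BL/6 embryos at embryonic day 18 (3 dendrite and 3 soma libraries), and the rat neurons from Sprague-Dawley hippocampus at embryonic day 18 (2 dendrite and 3 soma libraries). BAT cells came from the interscapular brown adipose tissue of CD-1 mouse embryos at day 17.5 (6 libraries by the labels). Cardiomyocytes came from embryos at day 14.5 (9 libraries by the labels) of transgenic C57BL/6 mice, hemizygous for the Fucci probe mAG-hGem under a CMV promoter, and were thus not of the same genotype as the neurons. No agent was given to any group, and all libraries shared 3 rounds of aRNA amplification, which starts from a poly(T) primer. A dendrite library held many dendrites cut by hand, while a soma, BAT or cardiomyocyte library held 1 cell. Each list pools the libraries of its group, so a condition has 1 value and differences between conditions have no replicate error and no test. The 95% intervals given are exact Poisson or Wilson intervals and cover counting error only. In pooled lists, fewer cells with a transcript and less RNA per cell cannot be told apart.

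Huntingtin is a very large scaffold protein that ties vesicles to motor proteins, and a stretch of CAG codons in the first exon of its gene encodes a glutamine tract whose expansion causes Huntington's disease. The ataxins share a disease name rather than a protein family: ataxin-1 is a partner of the repressor CIC, ataxin-2 binds RNA and the poly(A)-binding protein, ataxin-3 removes ubiquitin, ataxin-7 belongs to the SAGA chromatin complex and ataxin-10 is linked to neurite outgrowth. In ATXN1, ATXN2, ATXN3 and ATXN7 the disease repeat is a coding CAG run, whereas in ATXN10 it is an ATTCT repeat inside an intron.

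In the NCBIM37 (mm9) genome the mouse genes carry short CAG runs. They are shown for Htt and Atxn3 with the run in capitals, because the introns around these exons differ in the lists. The Htt run lies in exon 1 on the plus strand, within chr5:35104586-35104657, and holds 4 copies.

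Htt exon 1: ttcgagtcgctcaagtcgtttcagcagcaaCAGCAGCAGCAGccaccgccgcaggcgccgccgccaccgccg

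The Atxn3 run lies in exon 10 on the minus strand, within chr12:103164743-103164817, and holds 5 copies.

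Atxn3 exon 10: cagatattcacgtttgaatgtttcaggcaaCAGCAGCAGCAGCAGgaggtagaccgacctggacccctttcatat

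Both runs are in frame as glutamine codons, as is the run of 5 copies in exon 2 of Atxn7. The longest run of Atxn2 has 6 copies in exon 15 but is not read as CAG codons, and Atxn1 and Atxn10 have at most 2 copies in a row. Of 22613 coding genes of the annotation, 2.14% have at least 4 and 1.09% at least 5 CAG copies in a row. The introns on the 3′ side of the runs were not alike in the mouse lists. Htt intron 1 was in none of the 4 mouse lists. Intron 10 of Atxn3, which follows the CAG exon, was listed in BAT cells and cardiomyocytes, and introns 14 and 15 of Atxn2, on both sides of exon 15, were both listed in BAT cells and dendrites.

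The next windows are contigs that lists shared, that ended in a run of A, or that led a neuronal list. Htt intron 49 held the strongest mouse neuronal contig of the members. The contig of cardiomyocytes (plus strand, chr5:35227356-35227644, 289 nt) overlapped the soma contig over 281 nt, and the capitals mark a run of 16 A in which both contigs end.

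Htt intron 49: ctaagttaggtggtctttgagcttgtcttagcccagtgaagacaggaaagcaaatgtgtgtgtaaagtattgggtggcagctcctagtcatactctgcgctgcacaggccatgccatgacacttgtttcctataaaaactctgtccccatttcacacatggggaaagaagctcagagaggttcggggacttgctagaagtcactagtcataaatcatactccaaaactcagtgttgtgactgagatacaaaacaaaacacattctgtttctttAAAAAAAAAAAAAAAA

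In Htt intron 12, the BAT contig (plus strand, chr5:35157255-35157368) ended 10 nt into a run of 25 A, in capitals, printed to its end at position 35157383.

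Htt intron 12: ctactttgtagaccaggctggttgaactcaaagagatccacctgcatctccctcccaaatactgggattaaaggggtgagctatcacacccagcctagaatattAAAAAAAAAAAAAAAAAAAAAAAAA

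Htt intron 35 was shared by both neuronal lists of the mouse. The window covers both contigs (plus strand, chr5:35195134-35195401), and the capitals mark the 219 nt that dendrites and somas had in common.

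Htt intron 35: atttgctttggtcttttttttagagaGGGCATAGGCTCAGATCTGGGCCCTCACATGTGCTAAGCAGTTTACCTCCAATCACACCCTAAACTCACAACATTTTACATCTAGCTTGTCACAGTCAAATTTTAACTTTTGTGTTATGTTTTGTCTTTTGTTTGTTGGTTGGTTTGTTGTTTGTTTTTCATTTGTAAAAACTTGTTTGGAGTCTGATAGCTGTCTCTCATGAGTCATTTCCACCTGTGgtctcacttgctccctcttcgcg

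Atxn2 intron 20 was listed in somas, BAT cells and cardiomyocytes. The soma contig (plus strand, chr5:122253090-122253289) began at the first base of the intron, and the capitals mark the 144 nt common to the 3 lists.

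Atxn2 intron 20: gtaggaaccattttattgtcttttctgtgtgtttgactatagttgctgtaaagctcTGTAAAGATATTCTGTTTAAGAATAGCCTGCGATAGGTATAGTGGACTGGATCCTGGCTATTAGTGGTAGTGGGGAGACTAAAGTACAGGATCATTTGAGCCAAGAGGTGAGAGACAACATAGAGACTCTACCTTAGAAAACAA

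Atxn10 intron 3 was the strongest member intron of mouse dendrites. The first of its 2 dendrite contigs (plus strand, chr15:85202760-85202991, 232 nt) had no counterpart in the other lists and is printed with no capitals.

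Atxn10 intron 3: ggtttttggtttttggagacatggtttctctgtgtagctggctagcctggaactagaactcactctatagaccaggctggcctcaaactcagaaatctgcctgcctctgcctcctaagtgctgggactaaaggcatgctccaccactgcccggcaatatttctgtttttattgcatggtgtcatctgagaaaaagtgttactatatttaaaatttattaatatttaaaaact

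These windows hold intronic sequence with a GC content of 38.0% to 41.4%, near the median of 41.2% over all mouse contigs.

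Htt was the only member listed in all 6 lists. Its intronic reads numbered 134 in mouse dendrites, 1610 in mouse somas, 3672 in BAT cells, 867 in cardiomyocytes, 2658 in rat dendrites and 214 in rat somas. The lists differ in size, from 1007530 reads in rat dendrites to 17858440 in BAT cells, so counts were also given as RPM, the reads of a gene per 1000000 reads of its list. On this scale Htt was highest in rat dendrites with 2638 RPM (interval 2539 to 2740). Mouse somas followed with 868, BAT cells with 206, rat somas with 102 (interval 88.9 to 117), cardiomyocytes with 71.1 (interval 66.4 to 76.0) and mouse dendrites with 43.4. No 2 neighbours in this order had overlapping counting intervals. In mouse dendrites Htt had more reads than 59.8% of the listed genes.

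**Figure D1:**
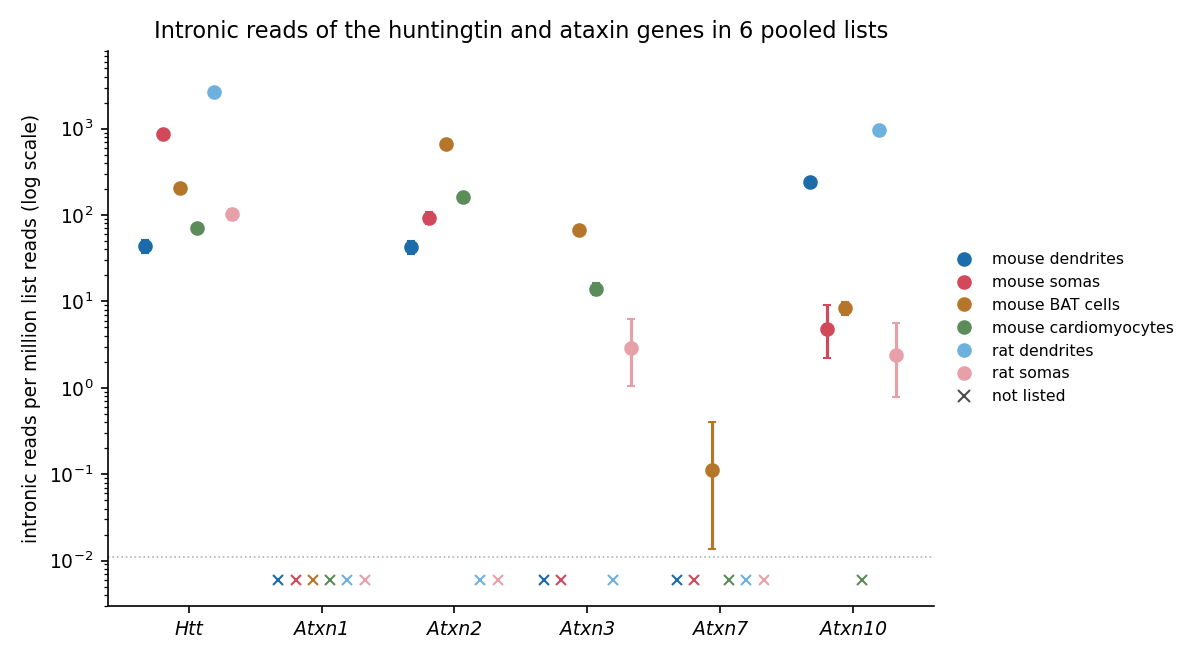
Intronic reads of each member in RPM (log scale) in the 6 pooled lists, with 95% Poisson intervals for counting error. Crosses below the dotted line mark lists without the gene. Htt stands in all 6 lists between 43.4 and 2638, Atxn10 has its highest values in the dendrite lists of both species, and Atxn1 is in none.

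In mouse dendrites the Htt reads (transcript NM_010414) came from intron 12 (100 reads), intron 35 (28), intron 14 (4) and intron 19 (2). In somas they came from intron 49 (1533 reads), intron 12 (73), and introns 13 and 35 (2 each). Both lists thus shared introns 12 and 35 with contigs that overlapped over 460 and 219 nt, and the difference in total rested on intron 49, which held 95.2% of the soma reads and was not in the dendrite list. BAT cells had 11 Htt introns, led by intron 52 (1799 reads) and intron 18 (1111 reads). The contig in intron 18 spanned the whole intron of 1411 nt. Those in introns 48 and 22 spanned 92.3% and 91.1% of theirs, and the one in intron 54 spanned 84.4%. The study joined reads into contigs across gaps, so a span is not read coverage, and intron 48 had only 9 reads. Cardiomyocytes had intron 22 (547 reads) and intron 49 (320 reads). In intron 22, the cardiomyocyte contig of 599 nt lay wholly within that of BAT cells and spanned 60.8% of the intron.

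In rat dendrites (transcript NM_024357, rn4) intron 28 alone held 2329 of the 2658 Htt reads, in a contig of 654 nt at chr14:81556320-81556973. Introns 10 (136 reads), 1 (94), 12 (72), 39 (22), 19 (3) and 37 (2) made up the rest. Rat somas had intron 49 (116 reads), intron 10 (88) and intron 52 (10). Intron 10 was the only intron common to both rat lists, and the contigs there did not overlap. By number, introns 12, 19, 49 and 52 of Htt were listed in both species. Introns 12 and 19 were in the dendrite lists of both, and intron 49 led the soma lists of both. Intron 28 had no contig in a mouse list. Rat sequence was not analysed here, so these are matches of the intron number only.

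Atxn2 (NM_009125) was listed in the mouse only. Its intronic reads numbered 132 in dendrites, 172 in somas, 11737 in BAT cells and 1972 in cardiomyocytes. In RPM, BAT cells were highest with 657 (interval 645 to 669), followed by cardiomyocytes with 162, somas with 92.7 (interval 79.4 to 108) and dendrites with 42.8 (interval 35.8 to 50.7). None of these intervals overlapped. In BAT cells intron 5 held 7374 reads in 3 contigs, and introns 14, 10 and 1 held 1117, 1070 and 1058. Cardiomyocytes were led by intron 1 (1448 reads) and intron 15 (373). Somas had nearly all reads in intron 20 (170 of 172), while dendrites had intron 1 (80), intron 5 (28), intron 14 (22) and intron 15 (2) and lacked intron 20. In intron 5, no contig of 1 mouse list overlapped that of another, although dendrites, BAT cells and cardiomyocytes all had reads there. Contigs of BAT cells (4 reads) and cardiomyocytes (22 reads) spanned intron 13 over its full 467 nt, and may hold gaps without reads.

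Atxn10 (NM_016843 in the mouse, NM_133313 in the rat) was the member with most reads in mouse dendrites, 746, of which 732 came from intron 3 and 14 from intron 7. Mouse somas had 9 reads (5 in intron 8 and 4 in intron 3), BAT cells had 148 in 6 introns, and the cardiomyocyte list did not hold the gene. Rat dendrites had 975 reads, 970 of them in intron 9, and rat somas had 5. Scaled to the list, both dendrite lists stood far above the rest, with 968 RPM in rat (interval 908 to 1030) and 242 in mouse (interval 225 to 260). BAT cells had 8.29 (interval 7.01 to 9.74), mouse somas 4.85 (interval 2.22 to 9.21) and rat somas 2.39 (interval 0.775 to 5.57). The last 3 overlapped with their neighbours in counting error.

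In human ATXN10 the ATTCT expansion lies in intron 9. The rat contig in the intron of that number spanned 292 nt at chr7:123412686-123412977 (rn4). This is a match of the intron number only, and whether the introns correspond was not checked. In the mouse, intron 9 is the longest of Atxn10 with 44595 nt and had no contig in any list. The mouse introns hold no ATTCT repeat, since the longest run searched on the gene's strand was 1 copy in each intron that held the letters at all. In the dendrite lists the species shared no Atxn10 intron by number, and in the soma lists they shared intron 8.

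Atxn3 was listed in BAT cells with 1185 reads, in cardiomyocytes with 170 and in rat somas with 6, and in neither dendrite list. In BAT cells 1173 of the reads lay in intron 10, in a contig of 655 nt that reached the 3′ end of the intron (minus strand, chr12:103161415-103162069). Cardiomyocytes had 163 reads in intron 6 and 7 in intron 10, at the other end of that intron, 252 nt from the CAG run. Atxn7 had a single contig with 2 reads, in intron 5 in BAT cells. Atxn1 had none, although its annotated introns add up to 404653 nt. Of 455 coding genes whose introns add up to at least 300000 nt, 86.6% were in a mouse list.

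**Figure D2:**
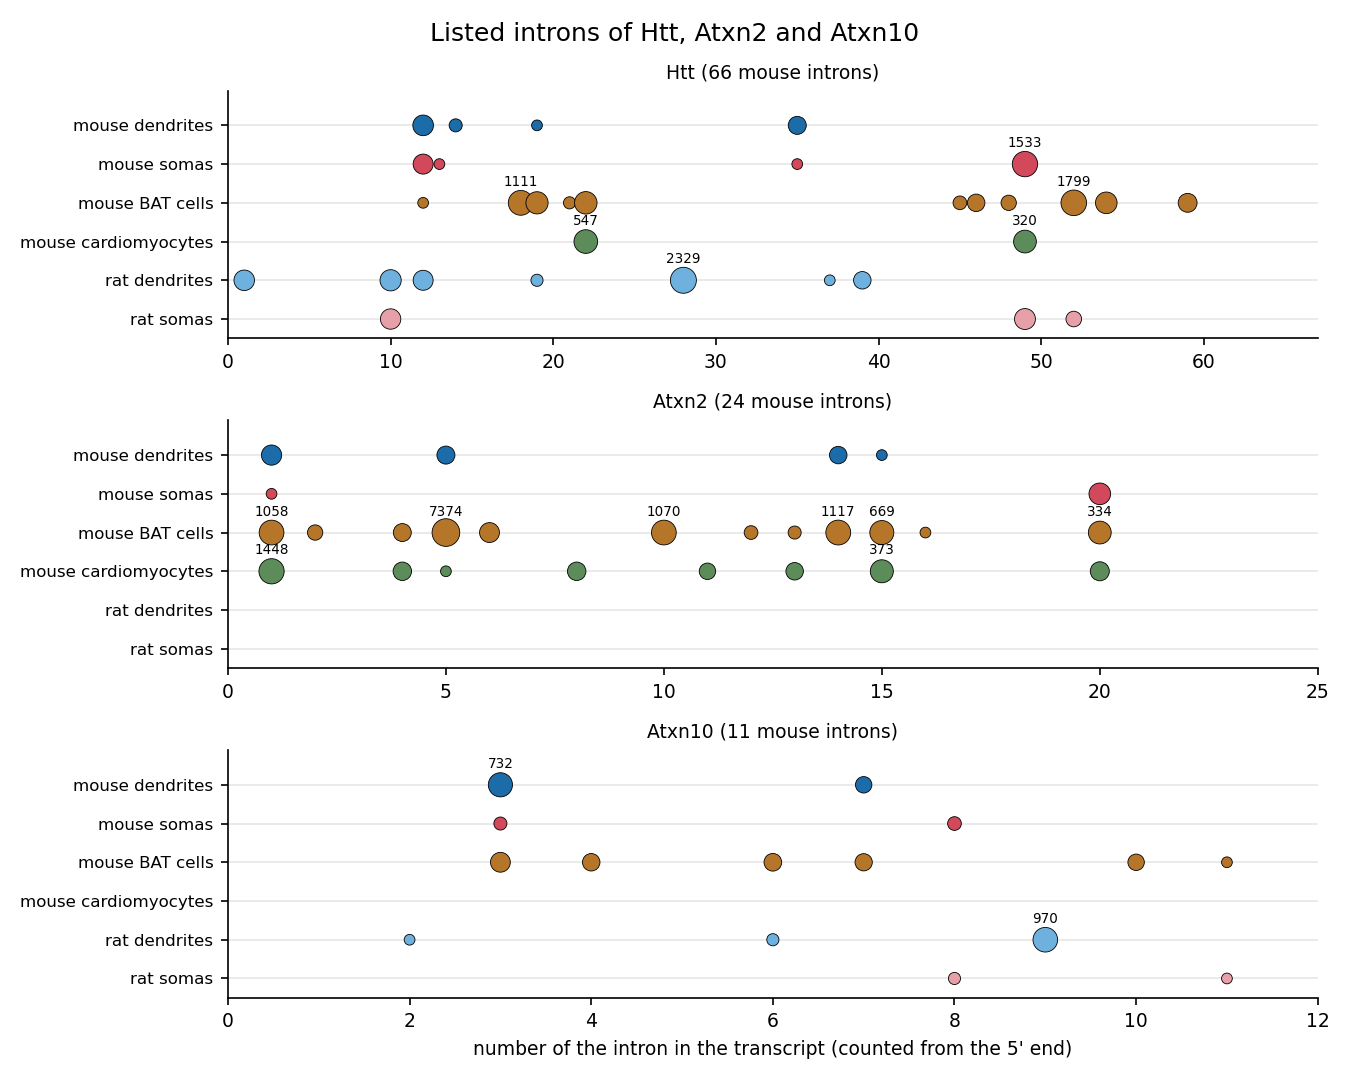
Introns of Htt, Atxn2 and Atxn10 with listed contigs, by intron number (horizontal) and list (rows). The area of a circle grows with the logarithm of the reads, and counts of at least 300 are printed. Intron 49 of Htt leads the mouse somas with 1533 reads and is missing from both dendrite rows, and the top intron of Atxn10 is 3 in mouse and 9 in rat dendrites.

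Presence in a list can be read against all genes. Of the genes in any mouse list, 69.0% were in the dendrite list, 47.3% in the soma list, 82.0% in the BAT list and 49.8% in the cardiomyocyte list. Of the 5 members in any mouse list these held 3, 3, 5 and 3. In the rat, 78.5% of the genes in either list were in dendrites and 59.4% in somas. Of the 3 members in either rat list, dendrites held 2 and somas held 3. These counts are too few to be set apart from the shares.

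An intron of more than 255 reads, the strongest class the study used, was present for Atxn10 in mouse dendrites, where 23.5% of the listed genes had one. It was present for Htt in mouse somas (18.7% of the listed genes), for Htt, Atxn2 and Atxn3 in BAT cells (40.2%), and for Htt and Atxn2 in cardiomyocytes (42.9%). In rat dendrites Htt and Atxn10 both had such an intron, which was known when they were picked, so that nothing is read from the 15.8% of genes with one in that list. No member had one in rat somas, against 30.4% of the genes there.

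Dendrites were then set against somas for the genes in both lists of a species. Of 4739 mouse genes, 33.2% were at least 4-fold higher in dendrites by RPM and 24.9% at least 4-fold lower. Of 2166 rat genes, 35.7% were higher and 24.6% lower by this rule. Differences of this size were therefore common, and the 4-fold rule is one of size only.

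Atxn10 was 49.8-fold higher in mouse dendrites than in somas (interval 26.1 to 109) and 405-fold higher in rat dendrites (interval 173 to 1251). In the mouse, 89.2% of the genes had a lower fold. The rat fold is made of the reads that were known when Atxn10 was picked and is not ranked. Htt was 20-fold lower in mouse dendrites than in somas (interval 16.7 to 24.0). In the rat it was 25.8-fold higher in dendrites (interval 22.5 to 29.8). Its high reads in rat dendrites were also known when Htt was picked, so this fold is not ranked and the species are not compared. Atxn2 in the mouse was 2.17-fold lower in dendrites (interval 1.72 to 2.74), inside the 4-fold rule. Atxn3 and Atxn7 were not listed in dendrites of either species and have no fold.

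The size of these folds depended on the intron with the most reads. Leaving that intron out of both lists lowers by construction the side that held its reads. Without intron 49, Htt had 134 reads in mouse dendrites and 77 in somas, a fold of 1.05 with an interval of 0.785 to 1.40 that spans equality. Without intron 20, Atxn2 had 132 reads in dendrites and 2 in somas, and turned to 39.7-fold higher in dendrites (interval 10.8 to 331). Atxn10 without intron 3 had 14 and 5 reads in the mouse, a fold of 1.68 (interval 0.573 to 5.97), and without intron 9 it had 5 and 5 reads in the rat, a fold of 2.08 (interval 0.478 to 9.03). Htt in the rat kept its direction without intron 28, 3.20-fold higher in dendrites with an interval of 2.68 to 3.81 that lies above equality. These exclusions were chosen after seeing the data. With contigs of at most 400 nt in somas, the length limit the study set for whole cells, the soma contigs of 578 nt in Htt intron 49 and 1661 nt in intron 12 drop out, which leaves 4 soma reads, while the dendrite contig of 502 nt in intron 12 is kept. Htt then became 9.60-fold higher in mouse dendrites. Under the same limit the fold of Atxn2 was 0.220, past the 4-fold rule, and Atxn10 was 23.7-fold higher in mouse and 200-fold higher in rat dendrites.

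**Figure D3:**
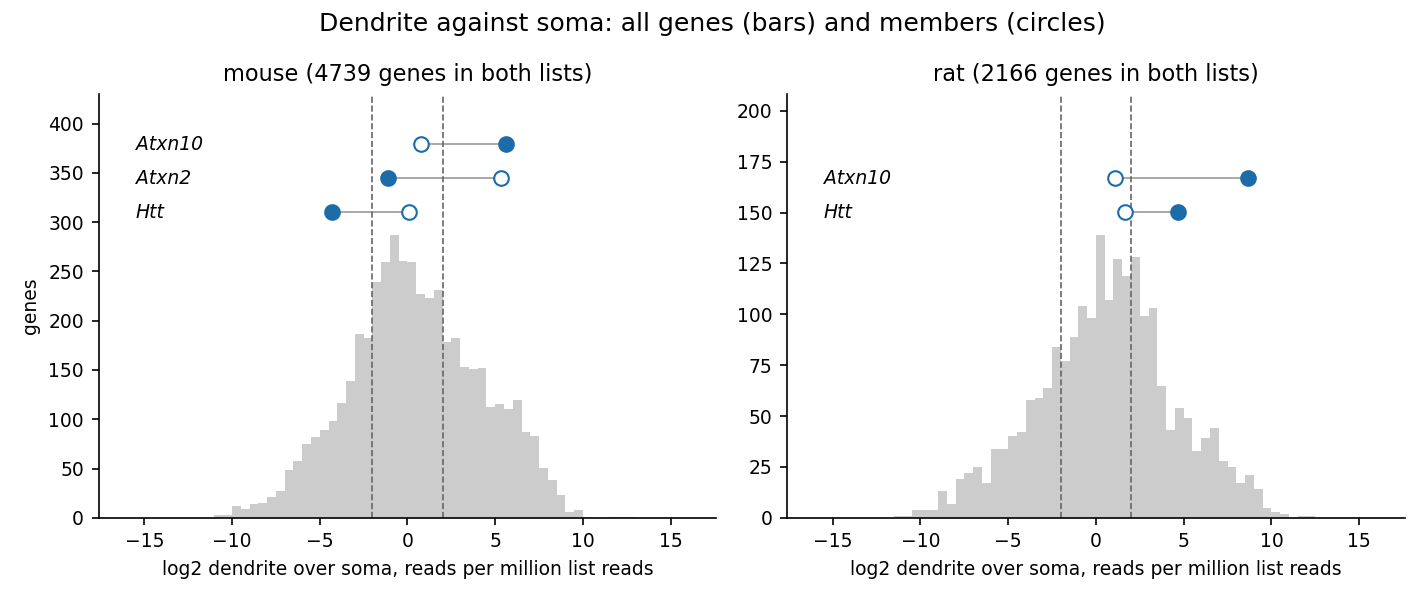
Log2 of dendrite over soma, in RPM, for all genes in both lists (bars) and for the members (filled circles), with the same value after leaving out the member's intron with the most reads (open circles). Dashed lines mark the 4-fold rule. Only Atxn2 in the mouse lies beyond the lines after the exclusion, and 2 mouse members cross the zero line.

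In most genes of these lists 1 intron held most of the reads. Over all genes with at least 2 listed introns, the leading intron held a median of 76.5% of the reads in mouse dendrites and 79.2% in mouse somas. The members' leading introns held 74.6% for Htt, 60.6% for Atxn2 and 98.1% for Atxn10 in dendrites. In somas they held 95.2% for Htt, 98.8% for Atxn2 and 55.6% for Atxn10. In rat dendrites they held 87.6% for Htt and 99.5% for Atxn10, beside a median of 78.9%. The shares were lower in rat somas, 54.2% for Htt and 60.0% for Atxn10 beside a median of 82.8%, and for 3 members in BAT cells, 1799 of 3672 reads for Htt, 62.8% for Atxn2 and 44.6% for Atxn10 beside 76.4%, while Atxn3 had 99.0% there.

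All 82 mouse contigs of the members lay inside the annotated intron of the same number. Over the 4 mouse lists, Htt had contigs in 15 of 66 annotated introns, 22.7% (interval 14.3 to 34.2). Atxn2 had them in 14 of 24 introns, 58.3% (interval 38.8 to 75.5), and Atxn10 in 7 of 11, 63.6% (interval 35.4 to 84.8). Atxn3 had them in 4 of 10 and Atxn7 in 1 of 11. Over all matched genes the share was 30.9%, which lies within the interval of Htt and below those of Atxn2 and Atxn10. In the dendrite list alone the shares were 6.06% for Htt, 16.7% for Atxn2 and 18.2% for Atxn10, beside 16.6% over all genes.

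Listed and other introns differed in length in both directions among the members. In Htt the listed introns had a median of 908 nt against 1336 nt for the others, and intron 1, the longest with 20632 nt, was not among them. In Atxn10 the medians were 4006 and 14537 nt, again with the longest intron not listed. For Atxn2 the listed introns were longer (median 1481 against 733 nt), and so they were over all matched genes (2568 against 1056 nt). By length, none of the 13 introns under 300 nt of the 5 listed genes was in a mouse list, beside 10.8% of all such introns. From 300 to 1000 nt, 13 of 32 (40.6%) were listed, beside 18.8% of all, and from 1000 to 3000 nt 15 of 40 (37.5%), beside 34.7%. From 3000 to 10000 nt, 10 of 29 (34.5%) were listed, beside 50.9%.

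Of the 41 member introns in mouse lists, 25 (61.0%) were in 1 list, 10 in a pair of lists, 5 in 3 lists and 1, Atxn2 intron 1, in all 4, close to the 60.5%, 25.7%, 10.1% and 3.70% of all introns. Those in 3 lists were Htt intron 12, Atxn2 introns 5, 15 and 20, and Atxn10 intron 3. Of the 10 member introns of dendrites, 4 (40.0%) were also among the 8 of somas (50.0% of these), and in 3 of the 4 the contigs overlapped, too few to be set apart from the 58.0% of such introns over all genes. Over all genes, 25.9% of the dendrite introns and 47.8% of the soma introns were common to both lists. In Atxn10 intron 3, the contigs of dendrites and somas shared 98 nt near the 3′ end.

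Several Htt contigs lay on transcripts that the annotation already marks as retained introns. Of the 21 Htt contigs, 7 (33.3%) overlapped an annotated exon, all on the strand of the gene. Over all mouse contigs the share was 7.78% on either strand and 6.93% on the strand of the gene. Introns 12 and 49 are counted once per list among the 7, so these contigs are not independent. The exons belonged to Htt-003 (intron 12), Htt-002 (intron 18), Htt-004 (intron 49) and Htt-005 (intron 59). The annotated exon of Htt-003 ended at the base before the run of 25 A printed above, and that of Htt-004 ended 1 nt before the run of 16 A. The soma contig in intron 12 went on past that exon for 707 nt, into a further run of A. The BAT, soma and cardiomyocyte contigs of Atxn2 intron 20 lay wholly on an exon of Atxn2-008, and a BAT contig of intron 15 overlapped Atxn2-006 by 94 nt. A BAT contig in Atxn2 intron 1 lay over an exon of the antisense gene Gm16552. Since the libraries did not keep the strand, reads of Atxn2 and Gm16552 cannot be told apart there.

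**Figure D4:**
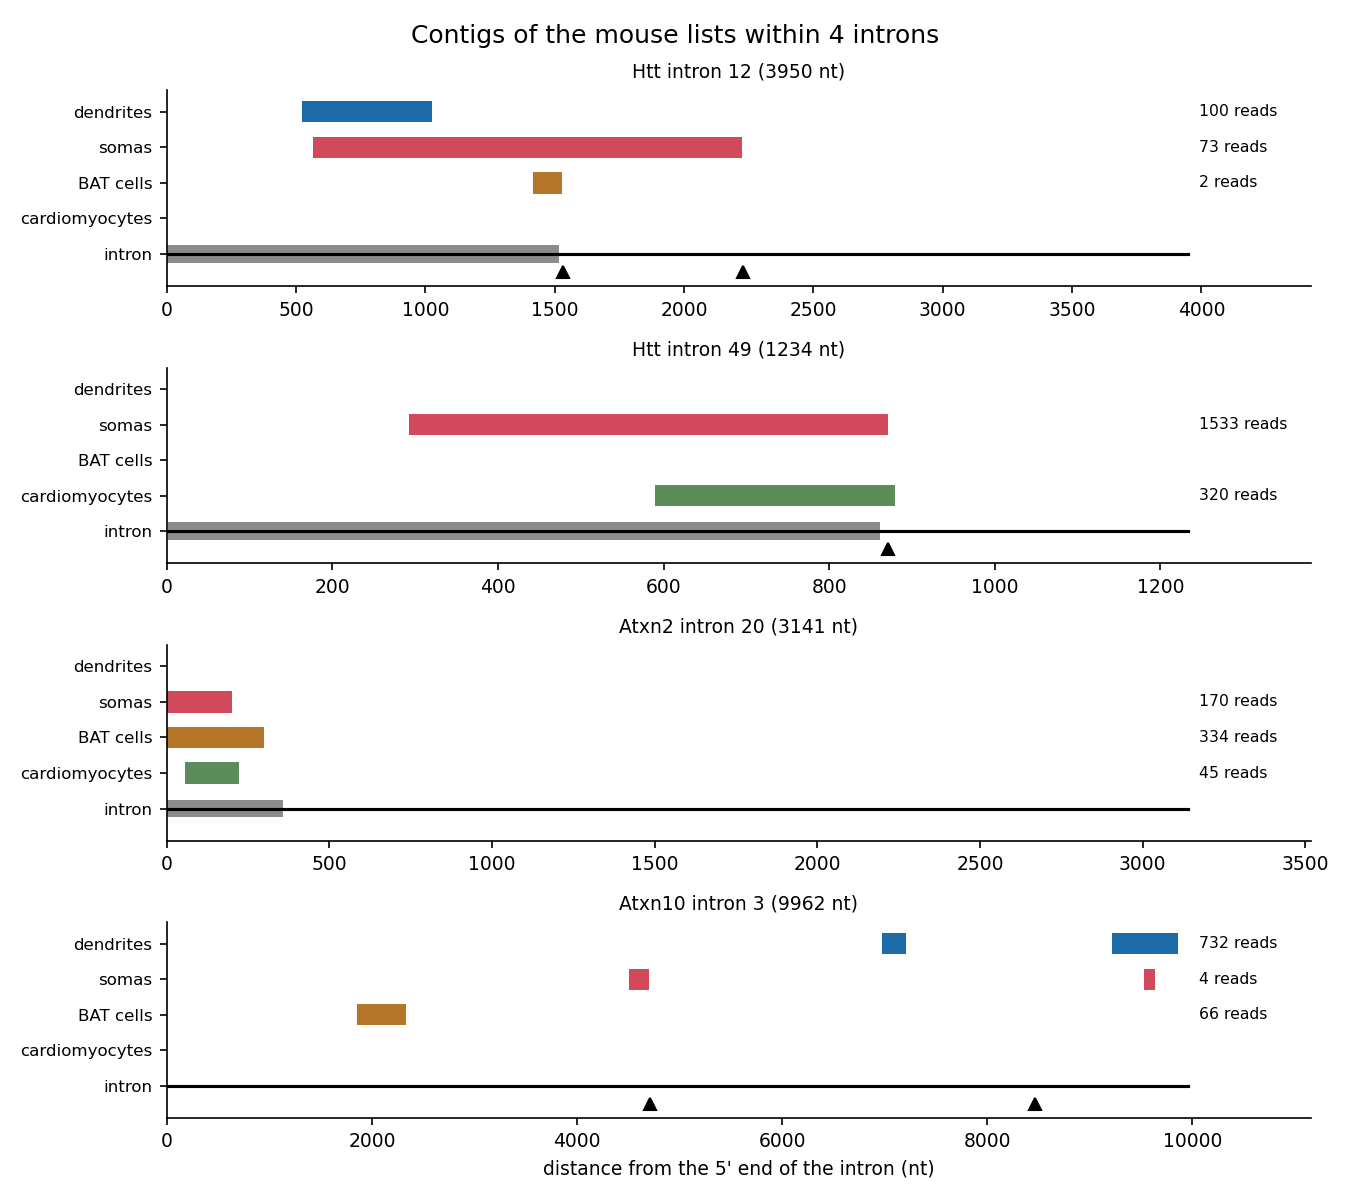
Contigs of the mouse lists (coloured bars, 1 row a list) in 4 introns, by distance from the 5′ end of the intron in nt, with the intron's reads at the right. Grey bars are exons of annotated retained-intron transcripts and triangles are runs of at least 10 A. In Htt introns 12 and 49 the BAT, soma and cardiomyocyte contigs end at a run of A, and the grey exon ends beside one.

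Runs of A bear on the measurement because the aRNA primer is a run of T. A run of 10 A on the gene's strand (AAAAAAAAAA) stood within 30 nt of the 3′ end of 13 of the 82 member contigs, 15.9%, beside 11.5% of the 97721 mouse contigs. For Htt these were 4 of 21, in introns 12 and 49. A run of 10 T within 30 nt of the 5′ end, which reads as A on the other strand, was found for 9 member contigs, 11.0%, beside 9.47% of all. Among these was the dendrite contig of Atxn10 intron 3 printed above, with the run 8 nt upstream. That intron led the member reads of mouse dendrites. The part of priming in these reads was not tested.

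The genes around huntingtin and the ataxins were counted from fixed lists. Their presence in a list is read against the shares over all genes given above, 69.0% for mouse and 78.5% for rat dendrites. Of 16 huntingtin partners, 13 were in any mouse list, 10 in dendrites, 6 in somas, 13 in BAT cells and 8 in cardiomyocytes. In the rat 6 were in either list, 4 in dendrites and 3 in somas. Those with an intron of more than 255 reads in mouse dendrites were Ncor1, a nuclear co-repressor (1086 reads), and Setd2, a histone methyltransferase (607). Hap1, an adaptor between huntingtin and motor proteins, was listed in BAT cells only. Of 15 ataxin partners, 12 were in any mouse list, 10 in dendrites, 9 in somas, 8 in BAT cells and 8 in cardiomyocytes. All 6 in either rat list were in dendrites, and 2 were in somas. Park2, the ubiquitin ligase parkin, had an intron of 594 reads and Rbfox1, a splicing regulator that binds ataxin-2, one of 350 in mouse dendrites, and Rbfox1 had one of 1072 in rat dendrites.

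Of 14 other repeat-expansion genes, 11 were in any mouse list, 8 in dendrites, 5 in somas, 9 in BAT cells and 5 in cardiomyocytes. All 7 in either rat list were in dendrites, and 2 were in somas. Of 12 further spinocerebellar ataxia genes, 8 were in any mouse list, 7 in dendrites, 5 in somas, 6 in BAT cells and 5 in cardiomyocytes. Of the 8 in either rat list, 6 were in dendrites and 6 in somas. Beside 69.0% and 78.5% of all genes, the dendrite counts are too few to be set apart. The leading introns of the ataxia genes in mouse dendrites were those of Fgf14, a regulator of sodium channels (2565 reads), and Itpr1, a calcium release channel (782). Tgm6, a transglutaminase (562), and Ttbk2, a tau tubulin kinase (453), followed. In rat dendrites Elovl4, an elongase of fatty acids, had an intron of 9125 reads, more than any member. Of 6 ataxin paralogues, 3 were in any mouse list and only Atxn7l1 was in mouse dendrites (70 reads), and no paralogue was in rat dendrites.

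The genes most like Htt over the 6 lists were Osbpl9, Tmem49 and Senp6, at distances of 2.57, 3.31 and 3.50 in log2(RPM + 1), where the median of 4492 genes in both species was 14.3. Those most like Atxn10 were Dhx35, Flt1 and Cd44, at 2.22, 2.65 and 2.68 with a median of 10.8. Each of these 3 was higher in both dendrite lists than in the somas of its species and, as Atxn10, not listed in cardiomyocytes. They were picked by distance over these same 6 lists, so this likeness follows from the choice and nothing is read from it.

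The labels were checked against marker genes. All 7 cardiomyocyte markers were in the cardiomyocyte list, at 34538 RPM in sum, against 59.7 to 2039 elsewhere. Of 6 brown adipocyte markers, 5 were in BAT cells at 3539 RPM, against 2.16 to 322 elsewhere, and 4 were in mouse dendrites. Pparg alone gave 2937 RPM of the BAT sum. Pparg, Ucp1 and Prdm16 were highest in BAT cells. Cidea was higher in cardiomyocytes (213 against 86.7 RPM in BAT cells), Ebf2 was higher in mouse dendrites (205 against 112), and Ppara was listed in the rat only. Of 7 neuron markers, 5 were in mouse dendrites (1112 RPM), 6 in mouse somas (7870), 3 in rat dendrites (1639) and 5 in rat somas (8644), but 5 were also in BAT cells (1040), and Map2 was in none of the lists. Mouse dendrites, where Atxn10 was high, held 4 of 5 astrocyte markers at 966 RPM, mostly Aldh1l1, against 142 in somas. In the rat, dendrites held 1 astrocyte marker at 68.5 RPM and somas 2 at 120. Mouse dendrites also held 6 of the 7 cardiomyocyte markers at 1014 RPM, close to the sum of their neuron markers, and mouse somas 3 at 1001. The part of other cell types in the members' reads was not tested.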

How the data were processed

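The authors amplified RNA of 26 libraries and aligned the paired reads with RUM to mm9 or rn4. They kept uniquely mapped intronic reads outside predicted genes and poly(A) sites. These reads were joined into contigs across gaps, so the length of a contig is a span and not read coverage. The deposited values are raw counts of reads per intron, not normalized, pooled over the libraries of a group. Every intron with several contigs carried 1 count, which was taken once per transcript and intron. Lists held 1007530 to 17858440 reads (median of 14.0 to 53.0 per intron). The labels name more BAT cells and more cardiomyocytes than the paper, and which libraries entered these lists is not given in the sources used here.

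All contigs were kept. Positions were counted from 1. The stop column was read as 0-based and inclusive, since 12033 contigs then end on the last base of their intron and 0 otherwise. Mouse introns were matched to GENCODE on NCBIM37 by symbol and intron number, taking the coding transcript that held most contigs and, among ties, the longest coding sequence. The tools were Python 3.11.15 with pandas 2.3.3, scipy 1.17.1, numpy 2.4.6, pysam 0.24.0 and matplotlib 3.10.9. Fold intervals are exact Clopper-Pearson intervals of a ratio of counts. The steps were tested on simulated data. Likeness is the Euclidean distance over the 6 lists, with genes that are not listed at 0.

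The members and gene lists were chosen with earlier results of these data known. Named genes are all members, related genes with an intron of more than 255 reads in a dendrite list (at most 6 a group), and the 3 genes nearest to Htt and Atxn10. One related gene and one sequence that this rule would show are not reported here. Hap1, Atxn7l1, the brown adipocyte markers and the marker genes Aldh1l1 and Map2 were named after their values were seen. The lists pool the replicate libraries of a condition, so no test was run. Rat sequence, rat introns without contigs and proteins were not analysed here. Alternatives were a contig limit of 400 nt in whole cells, a minimum of 32 reads, joined transcripts, a 2-fold rule, scaling to library reads and, added after seeing the data, leaving out the leading intron.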

Additional observations from a re-analysis of the deposited data

How the results depend on the processing

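No paired analysis was possible because each list pools its libraries, and the value without a given library could not be computed for the same reason. Joining the transcripts of a gene moved no result. With contigs of at most 400 nt in whole-cell lists, the members' introns fell to 21 in BAT cells and 7 in cardiomyocytes. Their RPM became 209 in mouse somas, 1401 in BAT cells, 98.1 in cardiomyocytes and 173 in rat somas, and members with an intron of more than 255 reads became 0, 1 and 1 in mouse somas, BAT cells and cardiomyocytes. The fold of Htt in the mouse turned to 9.60-fold higher in dendrites, so that 2 mouse members were higher by the 4-fold rule, and Atxn2 (a fold of 0.220) took the place of Htt as the 1 lower member. The folds of Atxn10 became 23.7 in the mouse and 200 in the rat, and that of Htt in the rat 16.7. With at least 32 reads per intron, 3 introns remained in mouse dendrites, 3 in mouse somas, 15 in BAT cells, 5 in rat dendrites and 2 in rat somas, and the members' RPM in mouse dendrites became 305. The mouse folds became 0.284 for Atxn2 and 0.0376 for Htt, with the direction of both kept. Atxn10 then had no soma value, so 0 mouse members and 1 rat member were higher in dendrites by the 4-fold rule. By a 2-fold rule, 2 mouse members were lower. Scaling to library reads, known for neurons only, gave a fold of 0.0696 for Htt and 0.642 for Atxn2 in the mouse and 19.0 for Htt in the rat, with the direction of each kept. Without the intron with the most reads, the mouse fold of Htt was 1.05, with an interval that spans equality, that of Atxn2 turned to 39.7, 0 mouse members were lower and 0 rat members were higher by the 4-fold rule. The lists start at 1 read per intron, so an intron that is not listed may have been below what the depth allowed or removed by the study's filters, and which of these applies was not tested.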
